A study of Mus musculus with 2 samples.

Results

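The chemokines, the interleukins and the receptors of both were examined in mouse kidneys after acute kidney injury (AKI). The members were the genes whose symbol in the deposited table was Ccl, Ccr, Cxcl, Cxcr, Ackr or Il followed by a number, or began with Ccrl or Cx3c, and Il6ra and Il6st were left out. This gave 91 of the 19829 genes listed: 25 chemokine ligands, 13 chemokine receptors (atypical receptors included), 16 interleukin ligands and antagonists, 31 interleukin receptors and 6 other genes. The RNA of the whole organ gave 1 library of the wild type (WT+AKI) and 1 of Inmt transgenic mice (TG+AKI). The transgenic mice overexpress Inmt, the gene of indolethylamine N-methyltransferase, in proximal tubules. The sample titles speak of mice in the plural, and the number of animals per library was not given in the sources used here. Per the study's methods, the mice were C57BL/6 animals given voclosporin, a calcineurin inhibitor, in daily injections of 30 mg/kg. The injections ran over 2 weeks, began at 8 and ended at 10 weeks of age. They were followed by 30 min of bilateral renal ischemia and reperfusion (I/R) at 14 weeks, and the wild-type animals were control littermates. The kidneys were taken at 48 h according to the methods and at 24 h according to the text of a figure. The labels list no treatment for either sample, while the series' design names voclosporin, and the title of the transgenic sample also speaks of a conditional knockout. The promoter that drives the transgene was not given in the sources used here.

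Chemokines are small secreted proteins that draw leukocytes along a gradient by way of G protein-coupled receptors, and atypical chemokine receptors bind them without the usual signal and remove or hold them. Interleukin receptors differ in how they signal: those of the IL-1 and IL-17 families recruit adaptors that lead to NF-kB, and most others signal through Janus kinases and STAT proteins. In an ischemic kidney, injured tubule cells, endothelium and resident macrophages are known sources of these signals, and neutrophils and monocytes are among the cells that answer them.

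Each gene was given as 1 normalized read count per library. With 1 library per group there was no replicate check of any difference, no p-value was computed for the conditions, and the 95% intervals below cover counting error only. The libraries held 38542764 reads (WT+AKI) and 36427421 reads (TG+AKI), and 1 read was worth a value of 0.0236 and 0.0302. The wild-type kidney had an Inmt value of 10.4 (443 reads) and the transgenic kidney 402.8 (13339 reads), a ratio of 38.5 (95% interval 35.1 to 42.5) in the direction that the labels give. Fold changes are log2((TG+AKI + 0.1)/(WT+AKI + 0.1)), where 0.1 is a pseudocount that keeps small values from giving extreme ratios, and genes with a mean value under 0.5 over both libraries were not compared. The pseudocount makes the changes of low genes look smaller, so the ratio without it is given with its interval for the members with the largest changes.

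Of the 91 members, 69 had a mean of at least 0.5. Of these, 26 (37.7%) were at least 2-fold lower in TG+AKI than in WT+AKI and 3 (4.35%) were at least 2-fold higher, while 40 lay within 2-fold. Over all 15870 genes compared, 10.4% were at least 2-fold lower, 7.03% were at least 2-fold higher and 17.4% passed 2-fold in either direction. The median log2 fold change was -0.79 over the 69 members and -0.02 over all genes compared. The counting interval of the ratio left out 1 for each of the 29 members past 2-fold. Of the 48 members with a mean under 10, 39.6% were lower and 2.08% higher, against 16.5% and 9.29% of all genes in that range. Of the 21 with a mean of at least 10, 33.3% were lower and 9.52% higher, against 6.67% and 5.65% of all genes. For 14 members the mean passed 0.5 although 1 library was under it, so that some difference was built into their passing. Of these, 11 (78.6%) were among the 26 lower members and none was higher. Over all genes, 832 passed in this way, and 44.0% of them were lower and 24.9% higher. Of the 55 members with at least 0.5 in both libraries, 15 (27.3%) were lower and 3 (5.45%) higher, against 8.55% and 6.04% of all genes so chosen. Setting both columns to the same total lowered log2 fold changes by up to 0.27, and the lower members then numbered 35 of 69 and the higher ones 3, while the calls over all genes changed from 1652 lower and 1116 higher to 2445 lower and 721 higher. A scaling to a median ratio of 1 over the abundant genes lowered them by up to 0.14.

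Among the chemokine and interleukin ligands and antagonists, 17 of the 29 compared were at least 2-fold lower and 1 was higher, with a median log2 fold change of -1.26. Among the receptors, 8 of the 37 compared were lower and 2 higher, with a median of -0.46. Over all genes compared, 10.4% were lower and 7.03% higher, and the counts of every group below stand beside these shares. The summed value of the 29 ligands and antagonists was 580.8 for WT+AKI against 362.3 for TG+AKI, and that of the 37 receptors was 448.5 and 424.2. Il34 and Il16 were placed with the other genes and are not among the 29. Among the lower ligands and antagonists, Cxcl2, Ccl5, Ccl11, Ccl17, Ccl20, Il1rn, Il1f6, Il1f9 and Il11 were under 0.5 in TG+AKI. They passed the filter only through WT+AKI, as did Ccr1 and Il27ra among the lower receptors. The counts and medians of ligands and receptors therefore depend in part on the filter. Whether ligands and receptors differed was not tested, since genes are not replicates.

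**Figure D1:**
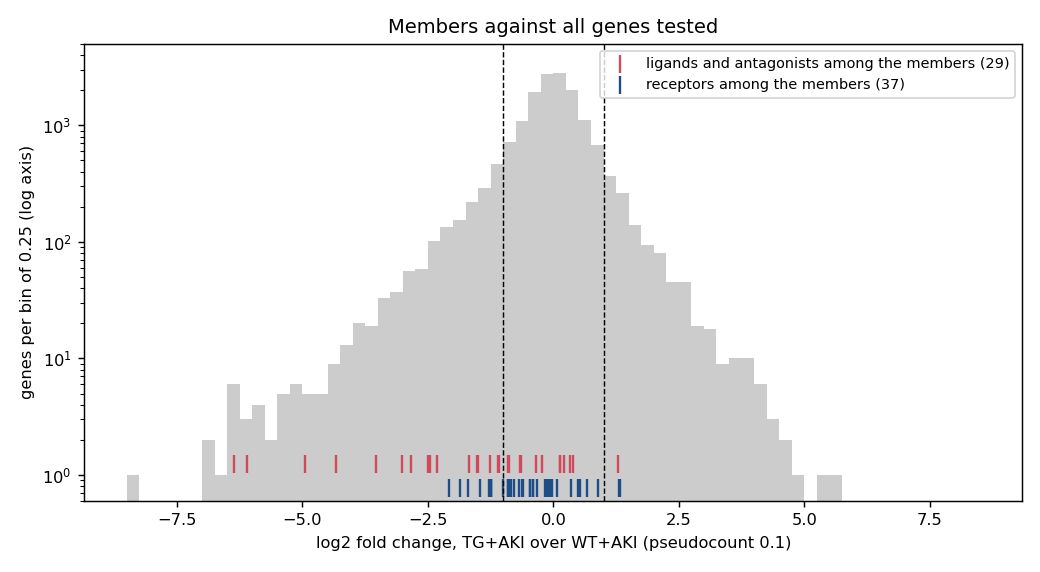
Histogram of the log2 fold change (TG+AKI over WT+AKI, x axis) of all 15870 genes compared, with the number of genes per bin on a log y axis. Ticks mark the 29 ligands and antagonists (upper row, red; Il34 and Il16 left out) and the 37 receptors (lower row, blue), and the dashed lines mark 2-fold. The lowest ticks, at -6.36 and -6.10, are ligand genes in the far left tail, whereas no receptor lies below -2.08.

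The upstream sequences of the 4 chemokine ligands with the largest decreases (Cxcl1, Cxcl2, Cxcl10 and Ccl20) are shown because their windows hold matches to motifs of inflammatory transcription factors. Each runs 5′ to 3′ over the 250 bases before the transcription start of RefSeq in build GRCm38.p6, which is the mm10 assembly. Capitals mark matches on either strand to the NF-kB consensus of 10 bases, to TGANTCA, the motif of AP-1, or to GAAANNGAA, a motif of interferon-responsive factors. The windows are chr5:90890995-90891244 on the plus strand (Cxcl1), chr5:90903649-90903898 on the plus strand (Cxcl2), chr5:92348890-92349139 on the minus strand (Cxcl10) and chr1:83116516-83116765 on the plus strand (Ccl20).
Cxcl1: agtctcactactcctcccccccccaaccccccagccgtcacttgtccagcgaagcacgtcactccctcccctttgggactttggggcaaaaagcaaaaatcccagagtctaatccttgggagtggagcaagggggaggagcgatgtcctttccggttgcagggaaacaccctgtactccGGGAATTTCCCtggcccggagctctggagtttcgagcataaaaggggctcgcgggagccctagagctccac
Cxcl2: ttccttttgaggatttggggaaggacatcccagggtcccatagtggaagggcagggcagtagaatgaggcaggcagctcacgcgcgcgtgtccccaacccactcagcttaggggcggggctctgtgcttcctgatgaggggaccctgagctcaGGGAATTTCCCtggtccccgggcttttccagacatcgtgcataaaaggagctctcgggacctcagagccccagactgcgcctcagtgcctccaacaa
Cxcl10: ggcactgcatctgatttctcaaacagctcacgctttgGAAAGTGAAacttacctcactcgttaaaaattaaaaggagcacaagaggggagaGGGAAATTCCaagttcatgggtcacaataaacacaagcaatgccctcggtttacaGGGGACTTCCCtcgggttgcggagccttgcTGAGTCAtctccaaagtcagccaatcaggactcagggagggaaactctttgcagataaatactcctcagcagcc
Ccl20: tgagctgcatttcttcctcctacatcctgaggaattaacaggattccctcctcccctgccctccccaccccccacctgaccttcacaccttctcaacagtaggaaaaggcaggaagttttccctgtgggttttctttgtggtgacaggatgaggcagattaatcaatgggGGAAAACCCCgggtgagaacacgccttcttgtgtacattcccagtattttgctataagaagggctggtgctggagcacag

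Cxcl1 and Cxcl2 carried the same 10-base match, GGGAATTTCC, beginning 71 bases before the start of Cxcl1 and 97 before that of Cxcl2. In both, a second match that is shifted by 1 base overlaps the first, since the stretch is nearly palindromic. Cxcl10 held NF-kB matches 159 and 104 bases before its start, with TGAGTCA 74 and GAAAGTGAA 213 bases before it. In Ccl20 the 1 match lay 80 bases before the start. The NF-kB consensus was found in 8.23% of all 27025 genes with a promoter in the table and in 10.6% of the genes compared. It was found in 12 of 55 members compared (21.8%) and in 6 of 20 lower members (30%), where Ccl9 and Ccr1 joined the 4 shown. The other compared members with it were Ccrl2, which was higher, and Ackr2, Il1r1, Il2ra, Il16 and Il22ra1, which lay within 2-fold. TGANTCA was found in 7.82%, 5.93%, 20% and 25% of the same sets, and the 5 lower members with it were Ccl9, Cxcl10, Il11, Il1rn and Il5ra. Il15ra, Ccl27a, Ccl27b, Il22ra1, Il16 and Il17rb, all within 2-fold, held it too. GAAANNGAA was found in 8.18%, 7.64%, 7.27% and 5%. Genes with several starts counted as holding a motif if any window did. A match describes letters and is no evidence that a factor binds there, and members without a match may have one outside this window.

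The CXC chemokines that carry the ELR sequence attract neutrophils through the receptor CXCR2. Cxcl1 had a value of 44.0 (1866 reads) in the wild-type and 0.544 (18 reads) in the transgenic kidney, which is 81.0-fold lower (95% interval 51.1 to 137). Values below are in this order. Cxcl2, its close relative, had 6.16 (261 reads) and 0.211 (7 reads), 29.1-fold lower (13.9 to 73.2). Both genes thus had nearly all their reads in the wild-type kidney. Cxcl10, which is induced by interferon and attracts activated T cells and NK cells through CXCR3, stood at 25.0 (1059 reads) and 2.05 (68 reads), 12.2-fold lower (9.52 to 15.8). The other ligands of CXCR3 were under the filter, Cxcl9 with 20 and 6 reads and Cxcl11 with 23 and 3 reads. Exons of Cxcl10 overlapped another gene, Art3, over 5.9% of their length and those of Cxcl11 overlapped Gm2673 over 41.7%, and how the counting treated strand was not given in the sources used here.

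Of the 4 remaining CXC and CX3C ligands, 1 was at least 2-fold lower, against 10.4% of all genes compared. Cx3cl1, a membrane-bound chemokine that holds monocytes and is shed to attract them, had 154.3 and 72.9, 2.12-fold lower (2.02 to 2.22). Cxcl12, the ligand of CXCR4 and ACKR3 with roles in homing and repair, went the other way, from 127.8 to 168.7, a ratio of 1.32 (1.27 to 1.37). Cxcl16, a membrane-bound scavenger and chemokine, had 68.8 and 37.5, and Cxcl14, an epithelial chemokine, 15.4 and 9.72. Cx3cl1 was the gene past 2-fold, and Cxcl16 passed it only when both columns were set to the same total or to a median ratio of 1.

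Among the inflammatory CC chemokines, 4 of the 5 compared were at least 2-fold lower, against 10.4% of all genes compared. Of the 4 lower ones, Ccl20, Ccl11 and Ccl5 were under 0.5 in TG+AKI and passed the filter only through WT+AKI. Ccl20, the ligand of CCR6, had 2.12 (90 reads) and 0.211 (7 reads), a ratio of 0.0996 (0.0389 to 0.214). Ccl11 (eotaxin), which attracts eosinophils, had 1.16 (49 reads) and 0.121 (4 reads), 9.57-fold lower (3.51 to 36.5). Ccl9 had 6.58 and 1.24, 5.31-fold lower (3.82 to 7.57), and was the best measured of the 4. Ccl5 (RANTES), made by T cells and injured tubules, had 1.32 and 0.393, 3.36-fold lower (1.82 to 6.71). Ccl6, a macrophage chemokine, had 9.81 and 5.16 and stayed within 2-fold, 1.90-fold lower (1.59 to 2.28). Ccl3 (22 and 8 reads) and Ccl4 (12 and 12 reads), both macrophage inflammatory proteins, had too few reads to compare.

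In the homeostatic and T cell group of CC chemokines, 2 of the 7 compared were lower, against 10.4% of all genes compared. Of the 2, Ccl17 passed the filter only through WT+AKI. Ccl28, a mucosal epithelial chemokine, had 17.9 (760 reads) and 5.53 (183 reads), 3.24-fold lower (2.76 to 3.83). Ccl17, a ligand of CCR4 made by dendritic cells, had 0.873 (37 reads) and 0.242 (8 reads), 3.61-fold lower (1.66 to 8.98). Ccl25, the thymic and intestinal ligand of CCR9, had 3.87 and 3.29. The lymphoid chemokine Ccl21a had 1.91 and 2.42, Ccl21b 1.01 and 1.12, the skin and epithelial chemokine Ccl27a 9.27 and 10.8, and Ccl27b 0.849 and 0.936. These last 4 were slightly higher in TG+AKI, but Ccl27a, Ccl21b and Ccl27b changed sign under a scaling to equal totals, and all 4 share from 50.2% to 100% of their 100-base words with other genes, so the reads of the copies cannot be cleanly separated.

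**Figure D2:**
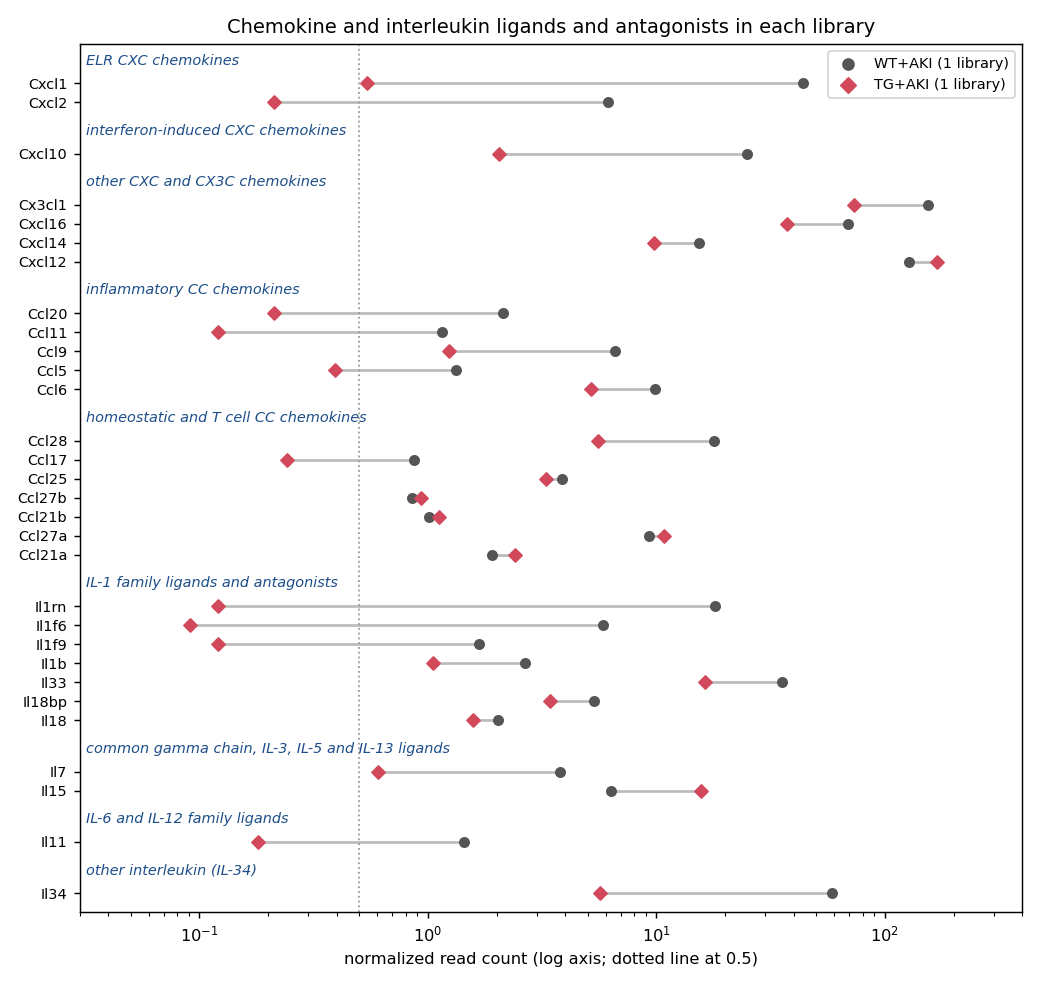
Normalized read count of each ligand and antagonist with a mean of at least 0.5 (log x axis) in WT+AKI (grey circles) and TG+AKI (red diamonds), 1 library each, ordered by group, with IL-34 added. Lines join the 2 values of a gene, and those of Il1rn (18.0 and 0.121) and Cxcl1 (44.0 and 0.544) span the widest range, while Il15 (6.32 and 15.7) runs the other way.

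The chemokine receptors, which are carried mostly by leukocytes, had values of at most 2.62 per kilobase of exon among the 5 compared (Cxcr4 in WT+AKI). Ccr1, the receptor of CCL5, CCL6 and CCL9 on monocytes and neutrophils, had 1.70 (72 reads) and 0.453 (15 reads), 3.75-fold lower (2.13 to 7.04), and was the only 1 of 5 compared that passed 2-fold. Cx3cr1, the fractalkine receptor of monocytes and resident macrophages, had 6.06 and 3.32, 1.82-fold lower (1.45 to 2.30). Cxcr4, the receptor of CXCL12, had 4.74 and 3.08, and Ccr2, the receptor of inflammatory monocytes, had 5.17 and 4.08. These 4 receptors were thus lower in TG+AKI, by amounts from 1.27-fold to 3.75-fold. The receptors under the filter included those of T cells, Cxcr3 (5 and 14 reads), Cxcr6 (9 and 16 reads) and Ccr7 (5 and 9 reads). Ccr9 had 11 and 4 reads.

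Of the 4 atypical receptors compared, 2 lay below 0 and 2 above 0 on the log2 scale, and 1 was at least 2-fold higher. Over all genes compared, 7.03% were higher. Ccrl2, which binds the attractant chemerin and presents it to leukocytes, had 2.62 (111 reads) and 6.67 (221 reads), a ratio of 2.55 (2.02 to 3.23). Ackr3, the scavenging receptor of CXCL12, had 42.2 and 67.5, a ratio of 1.60 (1.502 to 1.703). Ackr2, which clears inflammatory CC chemokines, had 0.637 and 0.453, and Ackr4, which clears the homeostatic ones, had 0.660 and 0.604. Chemerin itself, the product of Rarres2, was on a list of chemokines under other names and had 39.6 and 17.2 (log2 fold change -1.20), so Ccrl2 and its ligand gene moved in opposite directions. Of the 5 genes on that list that were compared, 2 were lower, the other being Cklf with 3.37 and 1.33.

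The IL-1 family held the largest change of any member. Il1rn encodes the IL-1 receptor antagonist, a secreted inhibitor of IL-1, and had 18.0 (764 reads) and 0.121 (4 reads), 149-fold lower (58.0 to 549). Il1f6 (IL-36 alpha), an epithelial cytokine, had 5.83 (247 reads) and 0.0906 (3 reads), 64.3-fold lower (21.8 to 314), with the TG+AKI value at the floor of 3 reads. Il1f9 (IL-36 gamma) had 1.67 (71 reads) and 0.121 (4 reads), 13.9-fold lower (5.18 to 52.3). In all 3 the wild-type kidney held nearly every read, and these 3 genes lie side by side on chromosome 2 with Il1f5 (the IL-36 receptor antagonist), which had 10 and 8 reads. Il1b, the main inflammatory IL-1, had 2.67 and 1.06, 2.52-fold lower (1.71 to 3.80), and its decrease was thus smaller than that of its antagonist. Il33, a nuclear alarmin, had 35.5 and 16.4, 2.17-fold lower (1.96 to 2.40). Il18, made by tubule cells and macrophages, had 2.03 and 1.57, and its decoy Il18bp had 5.35 and 3.41, both within 2-fold.

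Of the 6 receptors of this family, 2 were at least 2-fold lower. Il1rl2, the IL-36 receptor, had 4.41 (187 reads) and 0.966 (32 reads), 4.56-fold lower (3.13 to 6.87), and so was lower together with both IL-36 genes compared. Il18r1 had 1.49 and 0.574, 2.59-fold lower (1.53 to 4.58). Il1r1, the signaling IL-1 receptor, had 17.8 and 9.51, 1.87-fold lower (1.64 to 2.14). Il18rap had 1.06 and 0.574, and Il1rap, the shared accessory chain, 11.4 and 8.21. Il1rl1, the IL-33 receptor, had 0.495 and 0.755 (21 and 25 reads). Downstream of these receptors, 1 of 12 adaptors and kinases of the IL-1 receptor and Toll pathway was at least 2-fold lower, Irak3, an inhibitor of the pathway, with 7.38 and 2.39, and the median of the list was -0.05. Of 8 inflammasome genes compared, 1 was lower, Casp4 with 3.94 and 1.09. The shares lower, 8.33% of the adaptor list and 12.5% of the inflammasome list, were near the 10.4% of all genes compared.

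The cytokines of the common gamma chain and their relatives moved both ways. Il7, a stromal survival factor for lymphocytes, had 3.80 (161 reads) and 0.604 (20 reads), 6.29-fold lower (3.94 to 10.6). Il15, which sustains NK and memory T cells and is made by tubule cells, had 6.32 (268 reads) and 15.7 (519 reads), a ratio of 2.48 (2.14 to 2.88). It was the only ligand that was at least 2-fold higher. Il15ra, the chain that presents IL-15, had 21.6 and 22.6, and Il2rb, its signaling chain, had 0.637 and 0.846. Among the receptors, 3 of 9 were lower: Il5ra, the IL-5 receptor of eosinophils, had 11.1 and 3.93, 2.82-fold lower (2.32 to 3.45), Il3ra, the IL-3 receptor, 2.57 and 1.03, 2.50-fold lower (1.69 to 3.80), and Il4ra, the IL-4 receptor, 43.8 and 18.5, 2.37-fold lower (2.17 to 2.61). Il13ra1, the partner of Il4ra in the IL-13 receptor, had 75.7 and 73.8, a ratio of 0.975 (0.924 to 1.03), so that the chains of 1 receptor differed in their change. Il2rg, the common gamma chain, had 4.15 and 2.54 but shares 40.2% of its words with the gene model Gm20489. Il21r, at 1.06 and 0.483, was 2.20-fold lower (1.22 to 4.16) without the pseudocount. With the pseudocount its log2 fold change was -0.99, which just missed the threshold, and Cx3cl1, with -1.08, just passed it.

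The IL-6 and IL-12 families were sparse. Il11, a cytokine of stressed epithelium and fibroblasts, had 1.44 (61 reads) and 0.181 (6 reads), 7.94-fold lower (3.45 to 22.5). Il11ra1, its receptor chain, had 23.9 (1012 reads) and 60.4 (2001 reads), a ratio of 2.53 (2.35 to 2.73), which is the largest value above 0 among the members compared on the log2 scale (1.34). This gene is uncertain in size because 42.7% of its words also occur in Gm13305 or Il11ra2, and Il11ra2, all of whose words are shared, had 2.15 and 4.05. Il27ra had 1.91 (81 reads) and 0.453 (15 reads), 4.22-fold lower (2.41 to 7.88), and Il31ra had 1.79 and 1.33. The T cell-polarizing cytokine genes Il12b (3 and 8 reads) and Il23a (8 and 4 reads) and the receptor genes Il12rb1 (12 and 2 reads) and Il12rb2 (9 and 6 reads) were under the filter.

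Against 10.4% of all genes compared, 1 of the 9 receptors of the IL-10 and IL-17 families was at least 2-fold lower. This was Il20rb, a chain of the IL-20 receptors, which had 2.36 and 0.906, 2.60-fold lower (1.72 to 4.06). Il10rb, the shared chain of the IL-10 family, had 49.5 and 43.8, 1.13-fold lower (1.05 to 1.21), Il10ra had 4.79 and 2.57, and Il22ra1, the epithelial IL-22 receptor, had 5.61 and 7.91. All 5 IL-17 receptors were below 0 on the log2 scale and none passed 2-fold. Il17ra, their common chain, had 31.5 and 30.2, a ratio of 0.959 (0.882 to 1.04), and Il17rc, its partner, had 22.8 and 12.0, the largest difference of the 5. The others were Il17rd (16.4 and 10.6), Il17re (11.0 and 7.97) and Il17rb (10.2 and 9.27). The ligands Il17c, Il17d and Il17f had at most 14 reads in a library, and for Il17f these were 4 and 14 reads.

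Il34, a ligand of the macrophage growth factor receptor CSF1R that tubule cells make after ischemia, stood second among the members in WT+AKI per kilobase of exon (29.9). Its values were 58.6 (2483 reads) and 5.65 (187 reads), 10.4-fold lower (8.94 to 12.1). The receptor gene Csf1r had 37.5 and 43.0 (log2 fold change 0.20), while Csf1, the other ligand of that receptor, had 89.7 and 8.61 (-3.37). Both ligand genes were therefore far lower in TG+AKI and the receptor gene was not. Il16, a T cell chemoattractant, had 3.04 and 2.63.

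**Figure D3:**
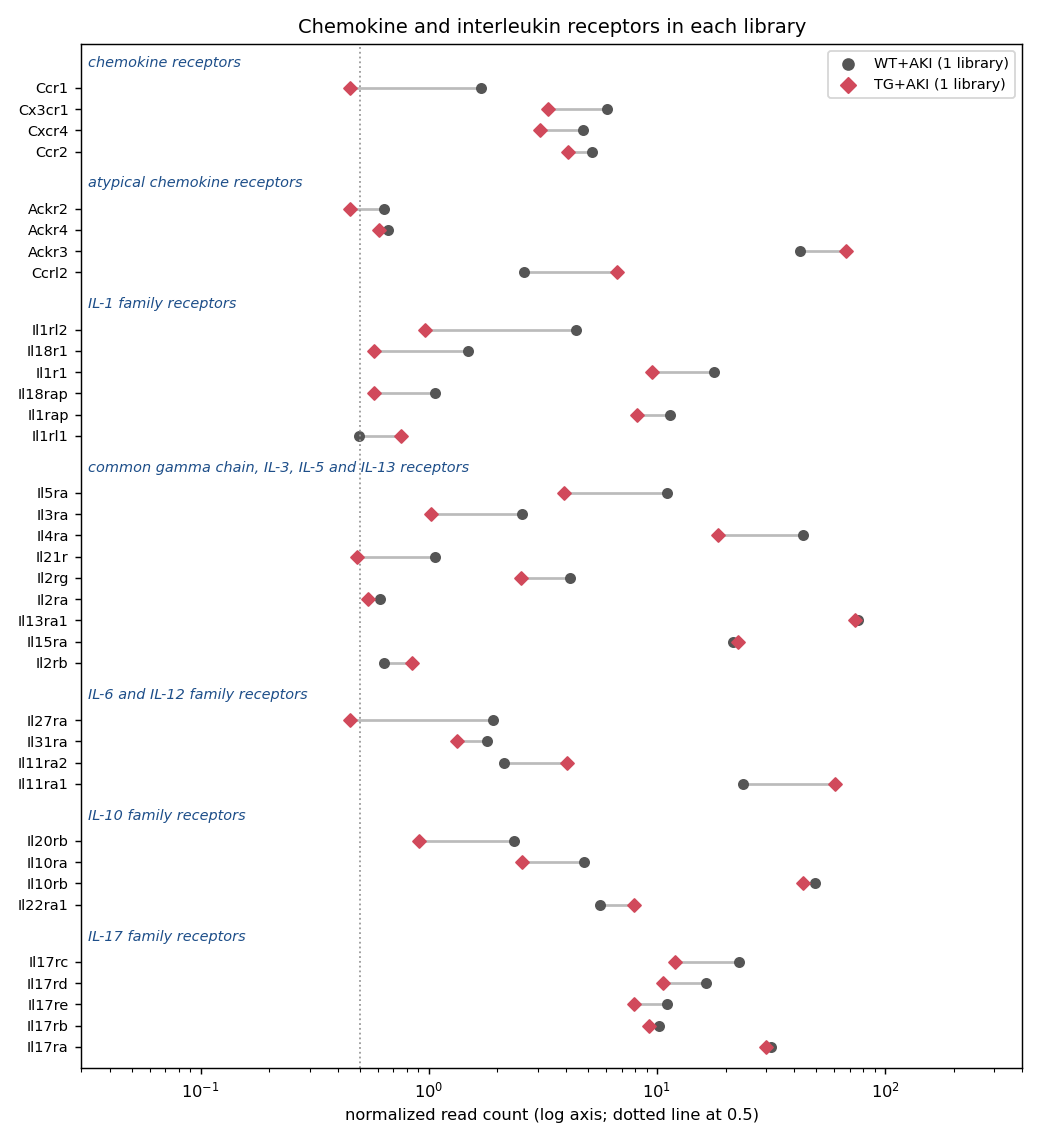
Normalized read count of receptors with a mean of at least 0.5 (log x axis) in WT+AKI (grey circles) and TG+AKI (red diamonds), 1 library each, ordered by family. The joining lines are shorter than those of Cxcl1 or Il1rn, with Il1rl2 (4.41 and 0.966) the widest, and Il11ra1 (23.9 and 60.4) and Ccrl2 (2.62 and 6.67) run to the right.

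Ligands set beside their own receptors fell into several patterns. CCL5 and CCL9 with Ccr1, and both IL-36 cytokines with Il1rl2, were lower on both sides. Of these genes, Ccl5, Ccr1, Il1f6 and Il1f9 passed the filter only through WT+AKI. For Cx3cl1 (-1.08) and Cx3cr1 (-0.85), and for Il1b (-1.26) and Il1r1 (-0.90), the ligand passed 2-fold and the receptor did not. For Il11 (-2.45) and Il11ra1 (1.34) the signs were opposite. They were also opposite for Il33 (-1.11) and Il1rl1 (0.52), but Il1rl1 had only 21 and 25 reads and its counting interval covered both signs. Il15 was higher while Il15ra (0.07) was not. These are log2 fold changes of single genes in a whole organ and do not tell which cells held the transcripts.

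Levels of different genes were compared per kilobase of exon, since longer transcripts give more reads. Per kilobase, the highest members in WT+AKI were Cx3cl1 (39.3), Il34 (29.9), Cxcl1 (23.5), Cxcl16 (22.8) and Il13ra1 (20.4). In TG+AKI they were Cxcl12 (20.6), Ackr3 (20.2), Il13ra1 (19.9), Cx3cl1 (18.6) and Il11ra1 (13.5). Cxcl1, among the leading members in the wild-type kidney, stood at 0.290 per kilobase in the transgenic one. With Il34 counted as a ligand, the first places thus passed from 4 ligands and 1 receptor to 2 ligands and 3 receptors. Cxcl12 and its receptor Ackr3 were then at the top. Neighbours at the top in TG+AKI lay close together, as did Cxcl1 and Cxcl16 in WT+AKI. The order of such neighbours cannot be held to differ without replicates.

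Many members lie in blocks that arose by gene duplication. Listed here are blocks of at least 3 members whose starts lie at most 500 kb from the next. On chromosome 2 (24186476 to 24351491, GRCm38.p6, as are the other positions) all 3 compared genes of the block Il1f9, Il1f6, Il1f5 and Il1rn were lower. These 3 were under 0.5 in TG+AKI and passed the filter only through WT+AKI. On chromosome 8 (94745684 to 94812038) both compared genes of the block Ccl22, Cx3cl1 and Ccl17 were lower. On chromosome 1 (40222480 to 40551707) 2 of 5 IL-1 family receptors were lower, and on chromosome 11 (83525778 to 83664683) 2 of 3 compared CC chemokines were. On chromosome 4 (41760443 to 42773991), by contrast, none of the 7 compared members, among them the copies of Ccl21, Ccl27 and Il11ra, was lower and 1 was higher. In the chromosome 9 block of receptors (123767211 to 124127183) 1 of 3 was lower, and on chromosome 5 (92321331 to 92363296) Cxcl10 was the only compared gene of 3. Cxcl1 and Cxcl2, a pair on chromosome 5 outside these blocks, were both lower. Ccl17, Ccl5, Ccr1 and Cxcl2 also passed the filter only through WT+AKI, so that some difference was built into these block counts. Over all genes compared, 10.4% were lower and 7.03% higher.

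A total of 22 members were under the filter, and 11 members had fewer than 20 reads over both libraries. A library was taken as at the floor with 3 reads or fewer, and this was so in at least 1 library for Cxcl11, Il1f6, Il12b, Il12rb1, Il17c and Il1bos. Further genes of these families, 55 by name, among them Cxcl3, Cxcl5, Cxcr2, Il1a, Il10 and Il17a, had no row and were not analysed here. No gene of the table was without reads in either library, so a family gene with reads in 1 library only would be missing from the counts. Sequence shared with another gene exceeded 20% of words for 9 members: Ccl19, Ccl21a, Ccl21b, Ccl27a, Ccl27b, Il2rg, Il11ra1, Il11ra2 and the pseudogene Ccl19-ps1, of which Il11ra1 alone was past 2-fold.

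Signaling genes that chemokine receptors use were lower in part. Of 14 compared, 6 (42.9%) were at least 2-fold lower and none higher, with a median log2 fold change of -0.84. Over all genes compared, 10.4% were lower. Vav1 (4.10 and 0.936), Rac2 (6.39 and 1.93) and Pik3cg (4.22 and 1.45), which are known mainly from blood cells, were among them, as was Rgs2 (32.4 and 14.2), a brake on G protein signaling. Of 10 Janus kinases and STATs, 2 (20%) were lower, Stat3 (220.8 and 67.5) and Jak3 (32.4 and 11.0), and the median was -0.35. Of 16 cytokines and receptor chains under other names, 9 were lower, with a median of -1.20. They included Csf1 (given above), Clcf1, a cytokine of the IL-6 family (42.8 and 2.78), and Csf3r, the receptor of neutrophil growth factor (3.28 and 0.634).

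Markers of the cells that carry these receptors moved as well. Over all genes compared, 10.4% were at least 2-fold lower and 7.03% at least 2-fold higher. Of 12 macrophage and monocyte markers, 9 were at least 2-fold lower in TG+AKI, with a median of -1.46 and a summed value of 226.7 against 91.3. Cd68 had 37.1 and 1.39 and Itgam 19.9 and 1.06, whereas Csf1r (37.5 and 43.0) and Mrc1 (2.67 and 4.26), which were singled out after their values were seen, were not lower. Of 10 neutrophil markers, 4 had a row and all 4 were lower (summed value 8.26 and 1.57), with S100a9 at 3.14 and 0.393. S100a8, S100a9 and Mmp9 were under 0.5 in TG+AKI and passed the filter only through WT+AKI. Of 11 T and NK cell markers with a row, 3 were compared and none passed 2-fold (summed value 2.12 and 2.36), as was the case for the 1 of 6 B cell markers compared, Cd79b, with 0.590 and 0.453. Of 4 dendritic cell markers, Itgax was lower (5.14 and 1.78), Flt3 was higher (0.330 and 1.24) and the other 2 lay within 2-fold, with a summed value of 22.0 and 17.5. None of 6 endothelial markers passed 2-fold (410.0 and 423.7). All 8 proximal tubule markers were at least 2-fold higher in TG+AKI (8501 and 33080), and the defining genes of kidney tubule were abundant in both libraries. In whole-kidney RNA, fewer cells of a type and less RNA per cell cannot be told apart, and the part of these differences in the changes of the members was not tested.

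**Figure D4:**
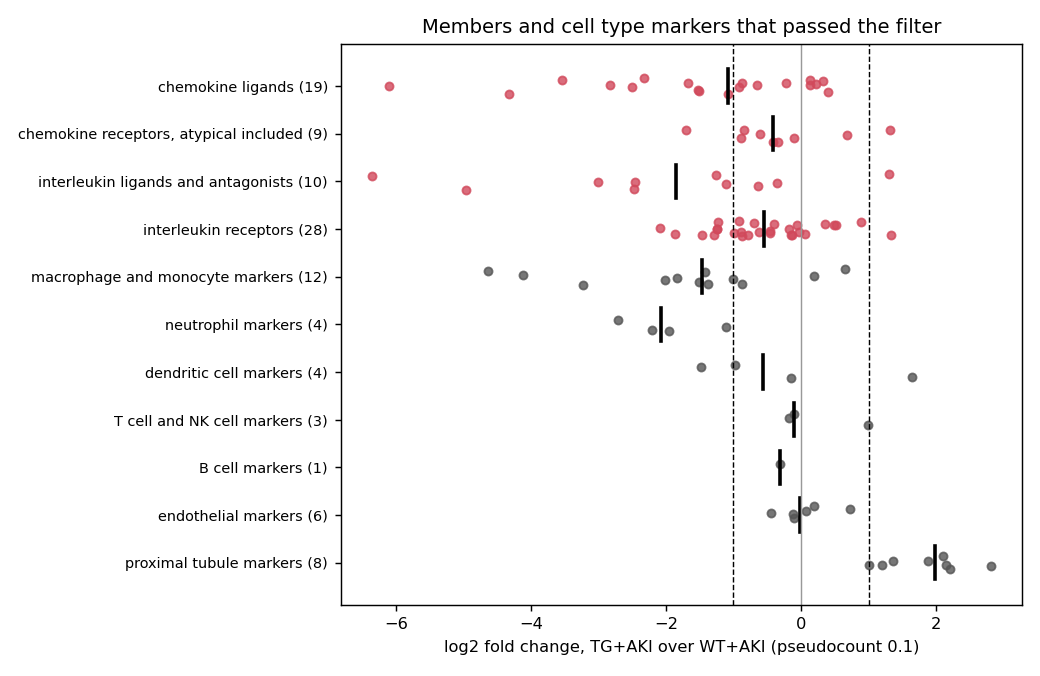
Log2 fold change (x axis, TG+AKI over WT+AKI) of the genes with a mean of at least 0.5 in 4 classes of members (red) and 7 lists of cell type markers (grey), with the number of genes in brackets, a black bar at the median and dashed lines at 2-fold. The medians are -1.46 for macrophage and -2.08 for neutrophil markers. Those of the members are -1.08 (chemokine ligands), -1.85 (interleukin ligands and antagonists), -0.41 (chemokine receptors) and -0.54 (interleukin receptors). The endothelial median is -0.02, and all proximal tubule markers lie at or beyond the right dashed line.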

How the data were processed

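Poly(A) RNA of whole kidneys was sequenced with a stranded kit, with 1 library per group. Per the labels and the study's methods, the authors aligned reads with STAR 2.7.3a, counted them per gene with HTSeq and normalized them with DESeq2. The processing notes also name edgeR, Cufflinks 2.2.1 and FastQC, and the mm10 build. The annotation and the strand setting of the counting were not given in the sources used here. The deposited values are a normalized signal, that is, read counts divided by 1 factor per library, and 100% of values were whole multiples (tolerance 0.01 reads) of the smallest value, so reads were recovered exactly.

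Groups came from the library names. A 2-fold change at a pseudocount of 0.1 was called among genes with a mean of at least 0.5, which stands for 21.2 reads in the wild-type and 16.6 in the transgenic library. Intervals (95%, Clopper-Pearson) came from the 2-sided exact binomial of the reads, which compares libraries and not conditions. Statistics in full were given for the 30 members with the largest changes and the most abundant member of each role group, and values for the others; of each other list, at most the 4 genes with the largest changes were named, and Csf1r and Mrc1 were added after their values were seen. The members, role groups, gene lists and ligand-receptor pairs were chosen with earlier results of these data known. A few members and listed genes are not reported here. The procedure was tested on simulated data. Coordinates and promoters came from RefSeq (GRCm38.p6; 71 of 91 members had a promoter) and exon lengths and shared 100-base words (longest transcript) from GENCODE M21 (89 of 91 members). Alternatives covered pseudocounts, filters, scalings and the call rule. Software was R 4.3.3 (DESeq2 1.42.0) and Python 3.11.15 (scipy 1.17.1, numpy 2.4.6, matplotlib 3.10.9, pandas 2.3.3).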

Additional observations from a re-analysis of the deposited data

How the results depend on the processing

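All 29 members past 2-fold kept their direction under the other pseudocounts and scalings, and the 26 lower and 3 higher ones were all kept with DESeq2 size factors and when an adjusted p under 0.05 between the libraries was also required. A pseudocount of 1 left 18 lower members (without Ccl5, Ccl11, Ccl17, Ccr1, Il1b, Il3ra, Il18r1 and Il20rb). A pseudocount of 0.01 gave 27, with Il21r added. A mean of at least 5 left 9 of 28, with 860 lower and 662 higher among all genes. A value of at least 10 in 1 library with a pseudocount of 1 also left 9, with 733 and 591 among all genes, and this changed the filter and the pseudocount together. Without a filter, 29 members were lower and 6 higher, the added ones having few reads. Equal column totals gave 35 lower members and left 721 higher genes in all. Of the uncalled members, 4 changed sign under equal totals (Ccl21b, Ccl27a, Ccl27b and Il15ra). Without the members that share over 20% of their words, no IL-6 and IL-12 family receptor was higher (0 instead of 1). Of 2 rules chosen after seeing the data, requiring 0.5 in both libraries left 15 lower members, and requiring the whole interval past 2-fold left 19. No paired analysis was possible because each group has 1 library, and no library could be left out. Depth limits the 22 members under the filter, for which read numbers are given without a call.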
